A study of Mus musculus with 8 samples.

Results

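The macrophage and myeloid genes described here are 35 genes named by symbol, among 18193 genes measured in mouse inguinal mammary gland. They were chosen as names of known macrophage and myeloid genes and sorted into 13 resident macrophage genes, 2 antigen presentation genes and 20 other myeloid genes. All 35 were on the array and passed the filter on low values, so 35 of the 10916 genes tested are members. The mice were virgin, 12 to 13 weeks old and gonadectomized (GDX), which takes away the gonads as a source of estrogen, and this holds for the controls as well. Each group got either vehicle or a subcutaneous injection of E2 (17β-estradiol, the chief estrogen in blood), and the interval from injection to tissue collection was 1, 3, 6, 12, 18 or 24 h. There were 2 vehicle arrays, both titled 24 h, and 6 E2 arrays with 1 array per time. Times were read from the sample titles. The descriptions give 24 h for every sample, and nothing in the labels resolves the mismatch. How many mice stand behind an array, and whether they were pooled, is not stated in the labels, nor is the strain, and the dose is left out because its unit is unclear. The comparisons ask when, within a day of E2, the levels of these genes in the gland differed from vehicle. Only the 24 h E2 array has vehicle arrays of its own time. At the other times E2, the time since injection and the time of day cannot be told apart.

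Macrophages of the mammary gland lie in the fat pad, along the ducts and within the epithelium, where they clear dying cells and take part in ductal growth and remodelling. Their survival depends on the receptor Csf1r and its ligands, Csf1 and Il34. The transcription factor PU.1, the product of Spi1, binds at many of their genes. Most of the genes below are shared by several myeloid cell types, and Cd74 and Ciita are also active in B lymphocytes and dendritic cells. The inguinal fat pad holds a lymph node, which brings its own macrophages and lymphocytes into the tissue where it is not dissected out. The measurements are of whole tissue, so fewer cells of a type and less RNA per cell cannot be told apart.

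Promoter sequence from RefSeq (GRCm38.p6, 250 bases before to 50 after the gene's start) was matched to 23 of the 35 members, with 25 windows. The PU.1 element GAGGAAGT was looked for on both strands and lay in the windows of 2 members, C1qc and Ctss. It was present in 3.2% of all 32817 windows. The consensus estrogen response element, GGTCA and TGACC with any 3 bases between them on either strand, was in 0 of the 23 members' windows and in 0.0701% of all windows. Printed here are the 2 promoters with a PU.1 match and those of Cybb and Mpeg1, the genes with the smallest adjusted p-values among the members. Each runs 5′ to 3′ on the gene's strand, from 250 bases before the start to 10 after it, and capitals mark the match, which reads as its reverse complement in both.
C1qc, chr4:136892905-136893164, minus strand: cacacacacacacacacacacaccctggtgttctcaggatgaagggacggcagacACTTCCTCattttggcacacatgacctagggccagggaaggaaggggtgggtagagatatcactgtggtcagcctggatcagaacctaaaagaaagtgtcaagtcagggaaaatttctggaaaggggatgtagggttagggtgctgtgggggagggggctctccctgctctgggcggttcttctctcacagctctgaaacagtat
Ctss, chr3:95526536-95526795, plus strand: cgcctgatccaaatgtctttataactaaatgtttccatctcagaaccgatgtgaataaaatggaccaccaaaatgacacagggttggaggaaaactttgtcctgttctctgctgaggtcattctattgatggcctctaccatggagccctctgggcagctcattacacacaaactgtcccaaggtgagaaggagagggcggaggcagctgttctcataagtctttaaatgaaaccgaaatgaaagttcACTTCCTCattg
Cybb, chrX:9469315-9469574, minus strand: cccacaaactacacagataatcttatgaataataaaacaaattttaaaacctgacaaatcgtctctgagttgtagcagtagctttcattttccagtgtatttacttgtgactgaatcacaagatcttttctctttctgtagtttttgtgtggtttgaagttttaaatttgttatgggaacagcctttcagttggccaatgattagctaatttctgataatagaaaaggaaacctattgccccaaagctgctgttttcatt
Mpeg1, chr19:12460520-12460779, plus strand: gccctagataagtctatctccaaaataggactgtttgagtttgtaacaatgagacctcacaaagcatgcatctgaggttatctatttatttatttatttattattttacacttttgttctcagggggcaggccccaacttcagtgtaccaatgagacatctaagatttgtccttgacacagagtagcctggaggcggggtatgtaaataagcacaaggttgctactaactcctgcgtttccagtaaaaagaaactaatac
In C1qc the match began 195 bases before the start, and in Ctss 2 bases before it, so that it spans the start. A match describes the letters only.

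The members sat at about the vehicle level 1 and 3 h after E2, stood slightly above it at 6 h, below it at 12 h and 18 h, and near it again at 24 h. Their median log2 difference from the vehicle mean was 0.044 and 0.0031 on the 1 h and 3 h arrays, 0.14 at 6 h, -0.12 at 12 h, then -0.077 and -0.016 on the 18 h and 24 h arrays. Over all genes tested the median stayed between -0.024 and 0.020. At 6 h, 28 of 35 members lay above both vehicle arrays, against 38.6% of all genes, and 0 lay below both, against 30.3%. At 12 h, 25 members lay below both vehicle arrays (25.2% of all genes) and 4 above both (37.9%). These distances were small: only Lyve1 at 3, 6 and 12 h was at least 25% above both vehicle arrays, and only Cybb at 12 h was at least 20% below both, which is the same factor.

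**Figure D1:**
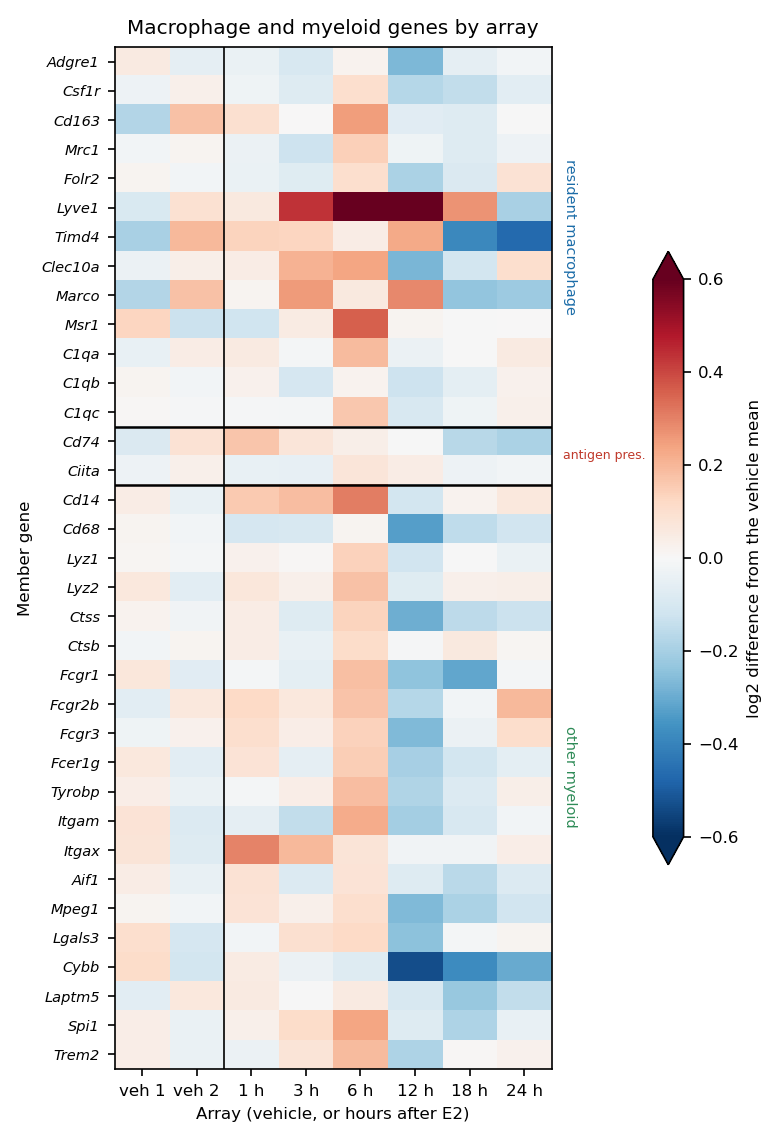
Log2 difference of each of the 35 members from the vehicle mean, with genes in rows by class and the 8 arrays in columns. Most rows are above the vehicle mean at 6 h and below it at 12 h, with Lyve1, Timd4 and Marco furthest above it at 12 h.

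No member changed by the test. The times were pooled into an early window (1, 3 and 6 h) and a late window (12, 18 and 24 h) of 3 arrays each, and compared with the 2 vehicle arrays and with each other by limma with Benjamini-Hochberg adjustment over all 10916 genes. Early against vehicle, 0 members and 0 genes in all passed an adjusted p of 0.05 (0% of genes), and the smallest adjusted p of a member was 0.739. Late against vehicle, 0 members passed, again of 0 genes in all (0%), and the smallest was 0.634. Late against early, 0 members passed where 60 genes did (0.55%), and the smallest was 0.0608, for Mpeg1. Early against vehicle, 28 of 35 members were higher (57.6% of genes), and late against vehicle, 29 were lower (54.9%). Late against early, 34 of 35 were lower, against 59.6% of all genes. The exception, Ciita, differed by 0.0069 on the log2 scale in its brightest probe set, and its other probe sets were lower late than early. Members of one cell type are not independent of each other, so these counts are descriptions.

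Without adjustment, 2 members were higher early than in vehicle at p below 0.05, Cd14 and Itgax (3.64% of genes), and 0 were lower (1.74%). Late against vehicle, 5 were lower, Cybb, Mpeg1, Cd68, Ctss and Laptm5 (4.8%), and 0 were higher (2.8%). Late against early, 13 were lower (13.6%) and 0 higher (5.5%). The late arrays were all below both vehicle arrays for 9 members (13.3% of genes), namely Csf1r, Mrc1, Cd68, Ctss, Aif1, Mpeg1, Cybb, Laptm5 and Spi1, and all above them for 0 (11.1%). They were all below the early arrays for 12 members (15%) and above them for 0 (8.96%). The early arrays were all above both vehicle arrays for 5 members (13.7%), a share near that of all genes, and below them for 0 (6.23%).

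**Figure D2:**
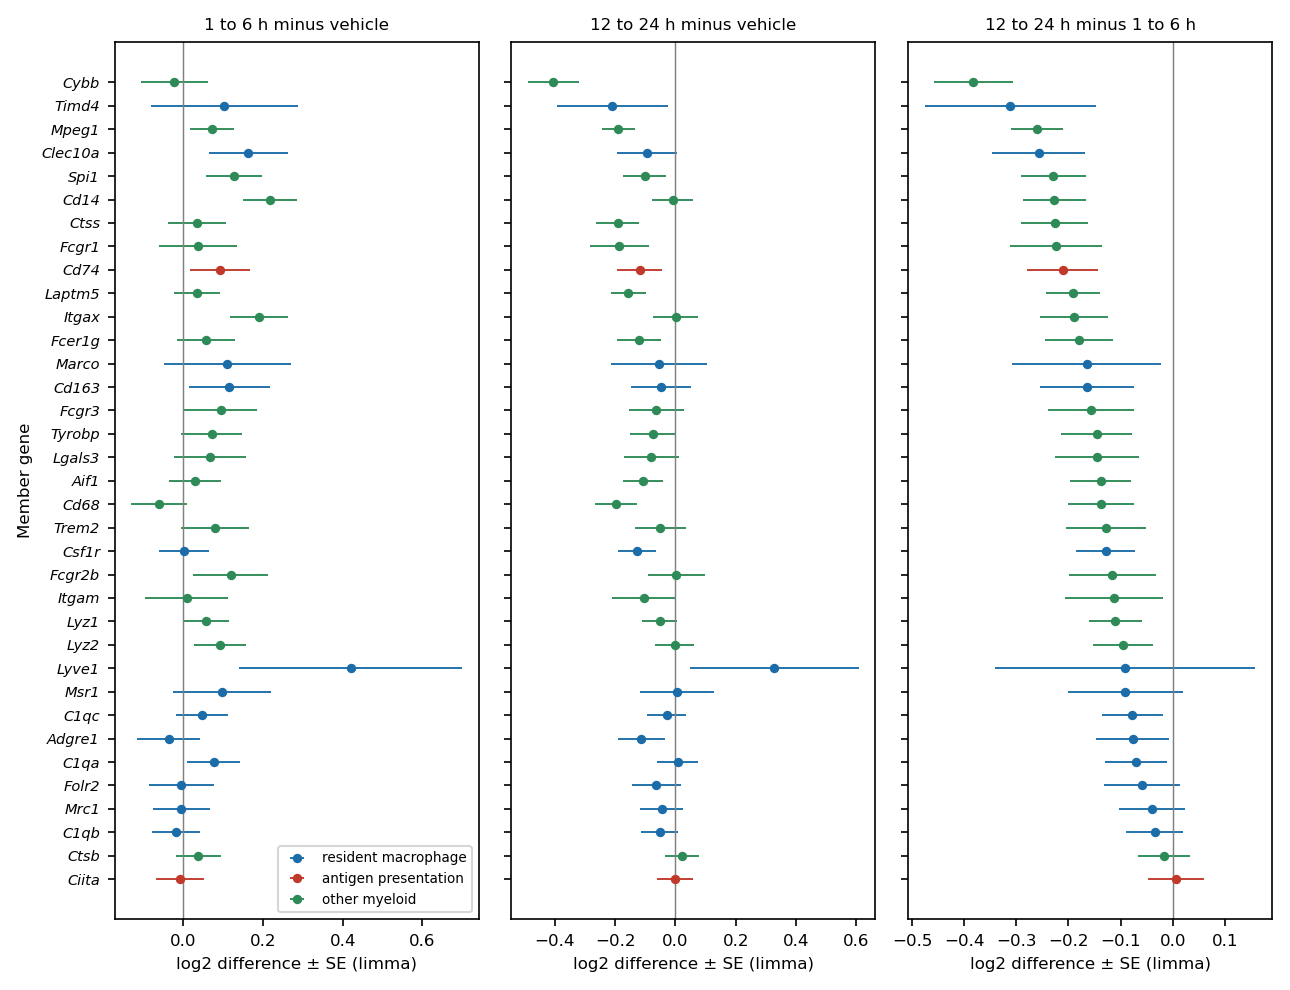
Limma log2 difference with its standard error for each member, early minus vehicle, late minus vehicle and late minus early, ordered by the last of these. By the brightest probe set of each gene, all but Ciita lie below 0 in late minus early. In any of the 3 comparisons, 0 members pass an adjusted p of 0.05.

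The medians of the 3 classes lay furthest apart at 12 h, a difference that is described and not tested. At 12 h the 20 other myeloid genes had a median difference of -0.18 from the vehicle mean. Of these, 18 lay below both vehicle arrays (25.2% of all genes) and 0 above both (37.9%). The 13 resident macrophage genes had a median of -0.068, and a mean of 0.015 with Lyve1 among them. Of the 13, 7 lay below both (25.2% of all genes) and 3 above both (37.9%). The 2 antigen presentation genes had a median of 0.021 at 12 h, and -0.099 and -0.10 on the arrays after it. At 6 h the medians of the resident and the other myeloid genes were both 0.14, and that of the antigen presentation pair was 0.053. From 6 h to 12 h the other myeloid genes differed by a median of -0.36, the resident genes by -0.26 and the pair by -0.032. Over all genes tested that median was 0.0061.

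**Figure D3:**
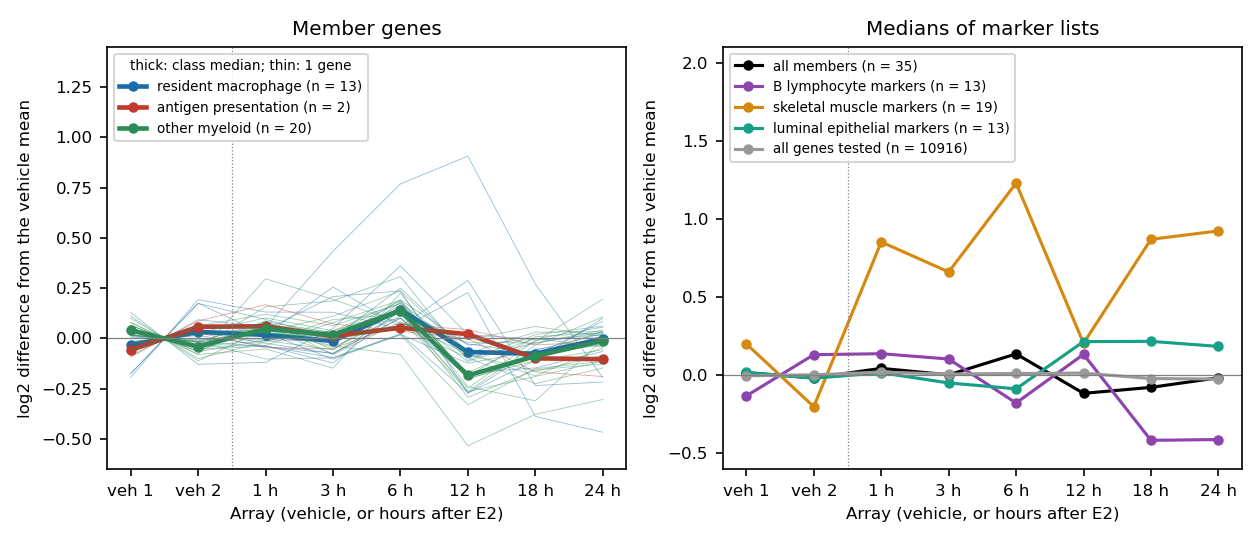
Median log2 difference from the vehicle mean (y axis) against hours after E2 (x axis) for the 3 member classes and all genes tested. The resident and other myeloid medians are both 0.14 at 6 h, and at 12 h the other myeloid median is the lowest, at -0.18.

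Csf1r, the growth factor receptor on which macrophages depend, had log2 levels of 12.97 and 13.04 in vehicle, 12.98, 12.93 and 13.11 at 1, 3 and 6 h, and 12.83, 12.86 and 12.94 at 12, 18 and 24 h. The late arrays lay below both vehicle arrays by a small margin, and late minus early was -0.13 ± 0.0563 (SE; adjusted p = 0.256). All 3 of its probe sets were highest at 6 h and lowest at 12 h. Adgre1, which encodes the macrophage surface antigen F4/80, was 11.16 and 11.05 in vehicle, 11.07, 11.01 and 11.13 in the early arrays and 10.84, 11.05 and 11.09 in the late ones. Of these, only the 12 h array stood clearly below vehicle.

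Csf1, the ligand of Csf1r and no member itself, was among the 60 genes that passed late against early. Its log2 levels were 10.25 and 10.29 in vehicle, 10.52, 10.60 and 10.74 at 1, 3 and 6 h, and 10.30, 10.17 and 10.21 at 12, 18 and 24 h. Each early array lay above both vehicle arrays, and the late arrays lay at about the vehicle level. Against vehicle Csf1 did not pass, with a limma adjusted p of 0.368 early and 0.854 late. Late minus early was -0.40 ± 0.0624 (adjusted p = 0.0406). That call held in 9 of 18 alternatives, with adjusted p between 0.0105 and 0.219, and was lost without either vehicle array, without the 3, 12, 18 or 24 h array, with quantile normalization, with the mean of all probe sets and with the B lymphocyte covariate. Il34, the other ligand, did not pass the filter on low values.

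Csf1 belongs to a list of 16 macrophage growth factors and myeloid transcription factors, of which 15 were measured and 14 tested. Late against early, 10 of the 14 were lower (59.6% of all genes) and 4 higher, and Csf1 was the only one that passed. Cebpb, a factor of the acute inflammatory response, was 11.39 and 11.25 in vehicle and 11.86 and 11.62 at 1 and 3 h, then 11.35, 11.31, 11.36 and 11.40 (adjusted p = 0.246 for late minus early). Irf8, needed for monocytes and some dendritic cells, was 9.90 and 10.19 in vehicle and 9.75 and 9.68 at 18 and 24 h, the lowest of the 8 arrays. Id2 was 9.75 and 9.88 in vehicle, 9.90 to 9.97 in the early arrays and 9.57 to 9.76 in the late ones (late minus early -0.30, adjusted p = 0.0741).

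Lyve1, a hyaluronan receptor carried by a subset of tissue macrophages and by lymphatic endothelium, had the largest distance from vehicle of all members, and its course was its own. Its log2 levels were 9.99 and 10.17 in vehicle, 10.14, 10.51 and 10.85 at 1, 3 and 6 h, and 10.99, 10.35 and 9.89 at 12, 18 and 24 h. The 3, 6, 12 and 18 h arrays lay above both vehicle arrays and the 24 h array below both. The 6 h array was 1.70-fold and the 12 h array 1.88-fold the vehicle mean. Because this peak crosses the border between the windows, the window fit gave 0.42 early and 0.33 late over vehicle, each with a standard error of 0.280, and adjusted p = 0.945 and 0.729. Without the 6 h array the early difference was 0.24 and without the 1 h array 0.60, and without the 12 h array the late difference was 0.038 and without the 24 h array 0.59. Each time is 1 array, so the peak itself has no replicate. Its second probe set had the same peak, at 0.83 over the vehicle mean at 6 h and 0.96 at 12 h. The 24 h array of that probe set, at 9.96, lay within its vehicle pair of 9.86 and 10.17. Across the 4 tested lymphatic endothelial markers (6 were measured), a list added after Lyve1's values had been seen, the median difference was 0.00 at 6 h and 0.10 at 12 h. At 12 h, 3 of the 4 lay above both vehicle arrays (37.9% of genes) and 1 below both (25.2%). From 6 h to 12 h, 1 of the 4 was lower (47.9% of genes), and the median difference was 0.12. Pdpn of that list, a gene that fibroblasts also express, differed from the vehicle mean by 0.27 at 6 h and -0.074 at 12 h. The part of lymphatic endothelium in Lyve1's course was not tested.

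Timd4, a phosphatidylserine receptor for dying cells on resident macrophages, and Marco, a scavenger receptor, shared with Lyve1 that the 12 h array was their highest (15.9% of genes), a trait picked after the values were seen. Timd4 was 9.49 and 9.87 in vehicle, 9.81, 9.81 and 9.73 in the early arrays, and 9.91, 9.29 and 9.21 at 12, 18 and 24 h. The 12 h array hardly exceeded the higher vehicle array, and the 18 h and 24 h arrays lay below both. Its vehicle arrays differed by 0.39, the widest gap of any member, and late minus early was -0.31 ± 0.164 (adjusted p = 0.326). Timd4's differences from the vehicle mean of 0.23, -0.39 and -0.47 on the late arrays in order of time stand beside medians of 0.13, -0.42 and -0.41 for the B lymphocyte markers, whose vehicle arrays differed by a median of -0.26. With the mean of those markers as a covariate, Timd4's late minus early difference was -0.018, and without the 12 h array -0.53 or the 24 h array -0.18. All 13 tested B lymphocyte markers were themselves lower late than early (59.6% of all genes), so that covariate is tied to the windows. The part of lymphocyte content in Timd4's course was not tested. Marco was 9.02 and 9.37 in vehicle, 9.21, 9.45 and 9.25 early, and 9.48, 8.96 and 8.98 late. Its 12 h and 18 h arrays lay on either side of the vehicle pair. In Marco's second probe set the 3 h array was the highest, at 9.12, and the 12 h array was 9.07. Lyve1, Timd4 and Marco were the only members higher at 12 h than at 6 h, by 0.14, 0.18 and 0.23 on the log2 scale.

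**Figure D4:**
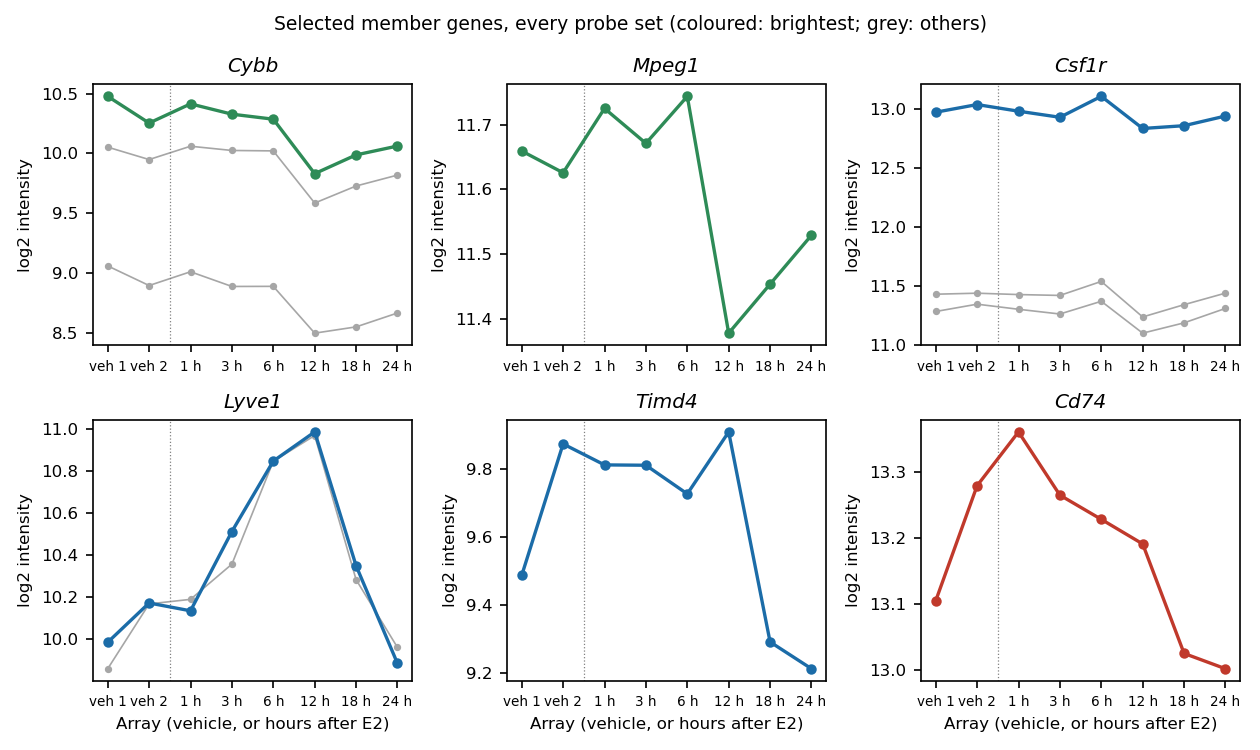
Log2 level (y axis) on each of the 8 arrays (x axis) for Cybb, Mpeg1, Csf1r, Lyve1, Timd4 and Cd74, with the brightest probe set in colour and the others in grey; each panel has its own y axis. Cybb, Mpeg1 and Csf1r are lowest at 12 h, where Lyve1 and Timd4 are highest.

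Clec10a, a lectin of tissue macrophages and dendritic cells, was 11.25 and 11.32 in vehicle, 11.33, 11.50 and 11.52 at 1, 3 and 6 h, and 11.01, 11.18 and 11.39 at 12, 18 and 24 h. The early arrays lay above both vehicle arrays and the 12 h array was the lowest, and late minus early was -0.26 ± 0.0889 (adjusted p = 0.186). Mrc1, Folr2, Cd163 and Msr1, the other receptors of the resident class, were also highest at 6 h. Mrc1, the mannose receptor, was 12.09 and 12.12 in vehicle and 12.25 at 6 h, and the other 5 E2 arrays lay between 11.98 and 12.08. Folr2, a folate receptor, was 11.23 and 11.19 in vehicle, 11.31 at 6 h and 11.02 at 12 h. Cd163, the haemoglobin scavenger receptor, was 9.60 and 9.95 in vehicle and 10.02 at 6 h, with the other E2 arrays inside the vehicle pair. Msr1, a scavenger receptor for modified lipoproteins, was 8.93 and 8.67 in vehicle, 9.16 at 6 h and between 8.68 and 8.85 at the other times.

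C1qa, C1qb and C1qc encode the 3 chains of C1q, the starter of the classical complement pathway, and macrophages are a main source of them. C1qa was 12.42 and 12.52 in vehicle, 12.66 at 6 h and 12.44 to 12.53 at the other times. C1qc, whose promoter holds the PU.1 match printed above, was 12.41 and 12.39 in vehicle, 12.56 at 6 h, 12.30 at 12 h and 12.38 to 12.43 otherwise. C1qb was 11.98 and 11.95 in vehicle, with 11.98 at 6 h and 11.84 at 12 h. All 3 chains were lower at 12 h than at 6 h, and late minus early lay between -0.077 and -0.035, with adjusted p of at least 0.477.

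Cybb, the membrane subunit of the phagocyte NADPH oxidase, was the member with the largest difference from vehicle in the late window. Its log2 levels were 10.48 and 10.25 in vehicle, 10.41, 10.33 and 10.29 at 1, 3 and 6 h, and 9.83, 9.99 and 10.06 at 12, 18 and 24 h. The late arrays were below every other array, and the early arrays lay within the vehicle pair. Late minus vehicle was -0.41 ± 0.0844 (adjusted p = 0.634) and late minus early -0.38 ± 0.0755 (adjusted p = 0.0680). At 12 h its 3 probe sets were 0.53, 0.42 and 0.48 below the vehicle mean, and 12 h was the lowest array for each.

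Mpeg1, a pore-forming protein that macrophages use against engulfed bacteria, came nearest to a call. It was 11.66 and 11.63 in vehicle, 11.73, 11.67 and 11.74 in the early arrays, and 11.38, 11.45 and 11.53 in the late ones. The early arrays lay just above both vehicle arrays and the late arrays below both, and late minus early was -0.26 ± 0.0495 (adjusted p = 0.0608). Ctss, the cysteine protease cathepsin S, which trims the invariant chain encoded by Cd74, was 12.95 and 12.91 in vehicle, 12.98, 12.85 and 13.06 early, and 12.64, 12.77 and 12.80 late. Its late arrays were below all others (late minus early -0.23 ± 0.0642, adjusted p = 0.140). The other lysosomal protease, Ctsb, kept to 13.53 to 13.69 in its brightest probe set on the E2 arrays, against 13.56 and 13.59 in vehicle. Its late minus early was -0.016, and the next-brightest probe set was likewise lowest at 3 h. Dimmer probe sets, with means of 10.48 and 10.32, were highest at 6 h and lowest at 12 h. They differed from the vehicle mean by 0.18 and 0.11 at 6 h and by -0.17 and -0.10 at 12 h.

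Cd68, a glycoprotein of the lysosome membrane, was 10.76 and 10.73 in vehicle, 10.64, 10.65 and 10.76 early, and 10.41, 10.59 and 10.63 late. The 12 h array stood apart as the lowest, and late minus vehicle was -0.20 ± 0.0702 (adjusted p = 0.634). Laptm5, a lysosomal protein of blood cells in general, was 11.62 and 11.74 in vehicle, 11.73, 11.68 and 11.73 early, and 11.58, 11.45 and 11.53 late. Here 18 h was the lowest array, and late minus early was -0.19 ± 0.0518 (adjusted p = 0.130). The probe sets of Laptm5 disagreed: from brightest to dimmest, late minus vehicle was -0.16, -0.22, -0.10, 0.12 and 0.017. The lysozyme genes Lyz1 and Lyz2 are near-identical copies whose probe sets may share signal, so their values are uncertain. Lyz1 was 13.16 and 13.14 in vehicle, 13.29 at 6 h and 13.04 at 12 h, and Lyz2 was 13.39 and 13.26, 13.50 and 13.25 on the same arrays. Lgals3, the lectin galectin-3, was 12.00 and 11.80 in vehicle, 12.02 at 6 h and 11.65 at 12 h.

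Cd14, the co-receptor for bacterial lipopolysaccharide, was 9.87 and 9.78 in vehicle, 9.98, 10.01 and 10.13 at 1, 3 and 6 h, and 9.71, 9.84 and 9.88 at 12, 18 and 24 h. The early arrays were above all others, by 0.22 ± 0.0684 over vehicle (adjusted p = 0.739) and with late minus early at -0.23 ± 0.0612 (adjusted p = 0.129). Spi1, the gene of PU.1, was 9.60 and 9.52 in vehicle, 9.59, 9.67 and 9.80 early, and 9.48, 9.37 and 9.52 late. Its 6 h array was the highest and its 18 h array the lowest, and late minus early was -0.23 ± 0.0628 (adjusted p = 0.135).

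Fcgr1, the high-affinity receptor for IgG, was 9.95 and 9.82 in vehicle, 9.88, 9.83 and 10.07 early, and 9.65, 9.58 and 9.88 late. Low values were those of 12 h and 18 h, with late minus early at -0.22 ± 0.0878 (adjusted p = 0.218). Its second probe set was also highest at 6 h, but differed from the vehicle mean by only -0.034 at 12 h and -0.041 at 18 h. Fcgr2b, the inhibitory IgG receptor, was 11.72 and 11.84 in vehicle, 11.95 at 6 h, 11.61 at 12 h and 11.98 at 24 h. Fcgr3, an activating IgG receptor, was 10.22 and 10.27 in vehicle, 10.39 at 6 h and 9.98 at 12 h. Both signalling adaptors and the receptor Trem2 were also highest at 6 h and lowest at 12 h. Fcer1g, the adaptor of Fc receptors, was 11.71 and 11.58 in vehicle, 11.79 at 6 h and 11.45 at 12 h. Tyrobp, the adaptor of Trem2 among others, was 11.41 and 11.33 in vehicle, 11.56 at 6 h and 11.19 at 12 h. Trem2 itself, a lipid receptor, was 8.22 and 8.14 in vehicle, 8.37 at 6 h and 7.99 at 12 h. Its second probe set, with a lower mean of 7.49, was also highest at 6 h. At 12 h that probe set was not low, at 0.026 above the vehicle mean.

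Itgam and Itgax, the integrin chains CD11b and CD11c, and Aif1, an actin-binding protein of macrophages, make up the rest of the class. Itgam was 9.30 and 9.14 in vehicle, 9.45 at 6 h and 9.02 at 12 h. Itgax was highest at 1 h, with 9.20 against 8.98 and 8.83 in vehicle, and its late arrays lay between 8.88 and 8.95. Aif1 was 9.36 and 9.27 in vehicle, 9.40 at 6 h, 9.24 at 12 h and 9.15 at 18 h.

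By their brightest probe sets, the antigen presentation genes differed from each other. Cd74, the invariant chain that escorts MHC class II molecules, was 13.11 and 13.28 in vehicle, 13.36, 13.26 and 13.23 at 1, 3 and 6 h, and 13.19, 13.03 and 13.00 at 12, 18 and 24 h. Only the 18 h and 24 h arrays lay below both vehicle arrays, and late minus early was -0.21 ± 0.0678 (adjusted p = 0.164). Ciita, the master activator of class II genes, was flat in its brightest probe set, between 8.10 and 8.22 on all 8 arrays. Its other 2 probe sets disagreed with it, at -0.33 and -0.74 from the vehicle mean at 18 h and -0.30 and -0.66 at 24 h.

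Of 18 other genes of the class II pathway, 17 were measured and tested, 15 were lower late than early (59.6% of all genes), 2 were higher and 0 passed. Their median difference from vehicle was -0.014 at 6 h and 12 h, -0.15 at 18 h and -0.13 at 24 h, and 14 of 17 lay below both vehicle arrays at 18 h, against 44.2% of all genes. H2-Ob, a chain of the class II modulator of B lymphocytes, was 9.79 and 10.14 in vehicle, and 9.40 and 9.33 at 18 h and 24 h. H2-DMa, a chain of the peptide exchange factor, was 9.89 and 10.15 in vehicle and 9.65 at 18 h. H2-Aa, a class II chain picked after its values were seen, was 13.02 and 13.15 in vehicle, and 12.94 and 12.92 at 18 h and 24 h. The B lymphocyte markers, 13 of them tested, had medians of -0.18 and 0.13 on the 6 h and 12 h arrays, then -0.42 and -0.41 on the last arrays, and all 13 lay below both vehicle arrays at 18 h (44.2% of genes) and 24 h (46.4%). The T lymphocyte markers had medians of -0.34 and -0.32 at these last 2 times. With the mean of the B lymphocyte markers as a covariate, late minus early for Cd74 was -0.11, and 2 members, Cd14 and Mpeg1, passed among 34 genes in all. The part of lymphocyte content in the members' values was not tested.

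Most of the contrast lay between the 6 h and the 12 h array, a choice of times made after the values were seen. The 6 h array was the highest of the 8 for 24 of 35 members, against 16.3% of all genes, and the 12 h array the lowest for 20, against 7.87%. At 12 h 32 members were below their 6 h level, against 47.9% of all genes, and 15 were at least 20% below it, against 3%. The median of that difference was -0.29 over the members and 0.0061 over all genes. By comparison, the median gap between the 2 vehicle arrays was 0.0928 over the members. Of the 35 members, 3 differed by at least 25% between the vehicle arrays, against 2.41% of all genes. Without the 6 h array 30 of 35 members were lower late than early (58.8% of genes), and without the 12 h array 32 were (62%), counts added after the values were seen. Without both arrays 25 were (61.2%), and the members' median late minus early was -0.039, beside -0.037 over all genes. Each time is 1 array, so a difference between times and one between 2 pieces of tissue cannot be told apart.

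**Figure D5:**
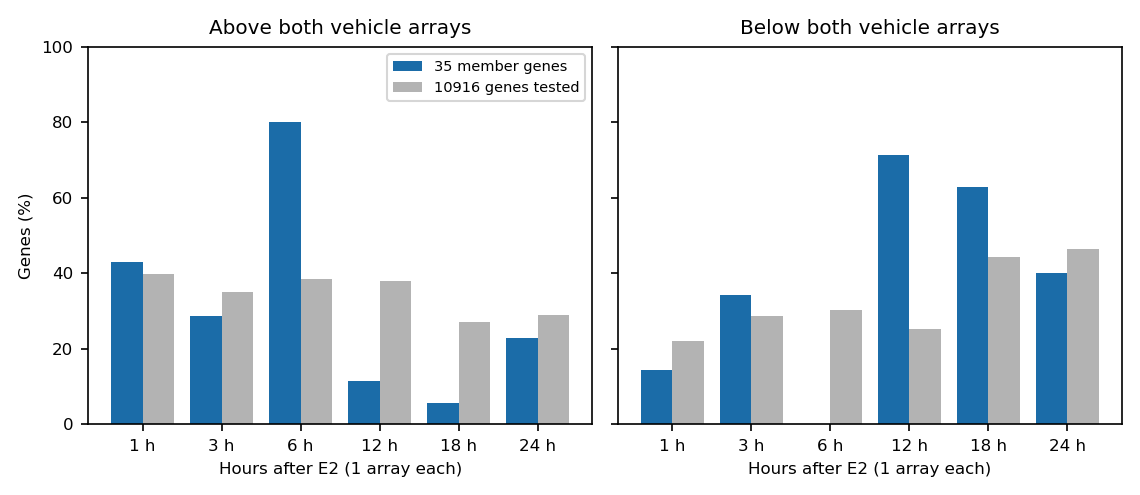
Percent of the 35 members and of the 10916 genes tested (y axis) that lay above both, or below both, vehicle arrays at each hour after E2 (x axis). The members reach 80% above at 6 h and 71.4% below at 12 h, where all genes are at 38.6% and 25.2%.

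At 1 h, 15 members lay above both vehicle arrays (39.7% of genes) and 5 below both (22.1%). At 3 h the counts were 10 (35%) and 12 (28.6%). At 18 h, 2 members lay above (27.2%) and 22 below (44.2%), and at 24 h 8 lay above (29%) and 14 below (46.4%), a share of members smaller than that of all genes. Counted at 25% above or 20% below both vehicle arrays, Lyve1 alone was higher at 3 h (1.62% of genes), 6 h (1.43%) and 12 h (0.44%), and Cybb alone was lower at 12 h (0.559%). The other counts were 0: higher at 1 h (0.733%), 18 h (0.467%) and 24 h (0.476%), and lower at 1 h (0.128%), 3 h (0.76%), 6 h (0.733%), 18 h (0.614%) and 24 h (0.614%).

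Genes of the same pathways outside the member list were also mostly lower late than early, as were 59.6% of all genes. Of 19 tested Fc receptor, complement and lysosomal effector genes, 18 were lower late than early and 0 passed. Itgb2, the chain that pairs with the product of Itgam, was 11.41 and 11.30 in vehicle, 11.38 to 11.43 early and 11.13 to 11.21 late (late minus early -0.24, adjusted p = 0.0639). C3ar1, the receptor of complement fragment C3a, was 10.89 and 10.59 in vehicle, 10.88 at 6 h and 10.26 at 12 h. All 10 tested macrophage activation genes were lower late than early, and 0 passed. Among them Arg1, an arginase of alternatively activated macrophages, was 8.89 and 7.94 in vehicle, 9.71 at 6 h and 7.65 at 12 h, with vehicle arrays further apart than the 6 h array is from the higher of them. Socs3, a feedback inhibitor of cytokine signalling in many cell types, was highest at 1 h, with 11.54 against 10.49 and 10.41 (late minus early adjusted p = 0.0710).

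Markers of other cells differed between the same arrays. For 19 tested skeletal muscle genes the median difference from vehicle was 0.85, 0.66 and 1.23 on the early arrays in order of time and 0.20, 0.87 and 0.92 on the late ones, highest at 6 h and lowest at 12 h among E2 arrays, as for the members. The vehicle arrays differed in them by a median of 0.40. With their mean as a covariate, 7 members were lower late than early at an adjusted p of 0.05, namely Cd14, Cd74, Ctss, Cybb, Laptm5, Mpeg1 and Timd4, while 1081 genes in all passed. All 10 fibroblast markers were lower at 12 h than at 6 h (47.9% of all genes), with medians of 0.077 at 6 h and -0.15 at 12 h. Luminal epithelial markers went the other way, with medians of -0.087 at 6 h and 0.22 at 12 h, and 3 of 13 passed as higher late than early, Krt8, Cldn3 and Elf3. Those calls held in 10 of 18 alternatives for Krt8, 9 of 18 for Cldn3 and 11 of 17 for Elf3, with adjusted p of up to 0.219, 0.219 and 0.225. The part of muscle, fibroblast and epithelial content in the members' values was not tested.

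Of other myeloid cells, 9 tested neutrophil markers had a median difference of 0.17 from vehicle at 6 h and 0.026 at 12 h. At 6 h, 6 lay above both vehicle arrays (38.6% of all genes) and 2 below both (30.3%). Within that list S100a8 and S100a9 stood 0.88 and 0.83 over the vehicle mean at 6 h, where their vehicle arrays were 9.90 and 9.21, and 9.93 and 9.22. In the same list 1 gene passed late against early, Ltf (lactoferrin, also made by mammary epithelium), as higher by 0.39 ± 0.0492 (adjusted p = 0.0265). Ltf was 9.74 and 9.80 in vehicle, 9.73 to 9.83 early and 10.11, 10.22 and 10.20 late, and its call was lost without the 3 h (adjusted p = 0.0587), 18 h (0.155) or 24 h array (0.0964). Of 10 tested monocyte and dendritic cell markers, 7 were lower late than early (59.6% of all genes). All 7 tested mast cell markers were lower, with 0 passing in either list. The monocyte and dendritic cell list had a median of 0.043 at 6 h, with 5 above (38.6% of all genes) and 4 below both vehicle arrays (30.3%). At 12 h its median was -0.012, with 5 above (37.9%) and 5 below (25.2%). Ccr2, the chemokine receptor of recruited monocytes, was 9.49 on both vehicle arrays, 9.65 at 6 h and 9.21 at 12 h. Cx3cr1, a receptor of patrolling monocytes, was 7.73 and 7.59 in vehicle, 7.85 at 6 h and 7.78 at 12 h. Cd209a of the same list was below both vehicle arrays at 6 h, with 8.88 and 8.95 in vehicle, 8.78 at 6 h and 8.66 at 12 h. Adipocyte and endothelial markers had medians between -0.11 and 0.062 from vehicle at every time.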

How the data were processed

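Gene expression was measured in mammary gland tissue on 8 Affymetrix arrays. The deposited values are intensity values on a linear scale for 45101 probe sets. GCOS 1.0 and RMA are listed in the submitters' processing notes, with no role or order. Array medians lay between 173.9 and 180.49, so the deposited arrays are on a common scale, however the authors reached it. The step that made them is otherwise not stated in the labels, and the number of arrays limits the precision. Nothing says that the 2 vehicle arrays came from separate animals, so p-values measure the spread between these arrays only.

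Control probe sets (64) were left out, and 34945 probe sets carried 1 gene symbol, 932 several and 9160 none. The log2 was taken of the deposited intensity. For each gene the brightest probe set (highest mean over 8 arrays) was kept, and genes at or above the 40th percentile of that mean (7.72 on the log2 scale) were tested. Of 35 members 13 had several probe sets. limma 3.58.1 (R 4.3.3; lmFit and eBayes with a mean-variance trend) was fitted on 3 windows with 5 residual degrees of freedom, and the Benjamini-Hochberg adjustment ran over all 10916 genes. Change within a window counts as spread. Single times were described by counts of members at least 25% above or 20% below both vehicle arrays, and a limma model of 7 group means was an alternative. The script was tested on simulated data.

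The members and lists were chosen with earlier results of these data known. Since no member passed, the rule names the 12 members with the largest difference in any window, here Lyve1, Cybb, Timd4, Mpeg1, Clec10a, Spi1, Cd14, Ctss, Fcgr1, Cd74, Cd68 and Laptm5, each with all arrays. Csf1r, Adgre1 and Marco are also given with all arrays, chosen after their values were seen, as were the genes Il34, H2-Aa, Cldn3 and Elf3, the counts beyond both vehicle arrays without a fold, the counts of highest and lowest arrays, the 12 h to 6 h comparison and the lymphatic list. Up to 4 genes of each other list could be named by size. The lists cover the class II pathway, growth factors and transcription factors, monocytes and dendritic cells, neutrophils, mast cells, macrophage activation, Fc receptors with complement and lysosome, B and T lymphocytes, adipocytes, skeletal muscle, luminal epithelium, endothelium and fibroblasts. Alternatives changed the filter, the scaling, the probe set rule, the empirical Bayes step, the covariates and the arrays used.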

Additional observations from a re-analysis of the deposited data

Results flagged for a closer look

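Mpeg1 drew attention because its 3 early arrays all lay above both vehicle arrays and its 3 late arrays all lay below both. Early arrays all above both were seen for 13.7% of all genes, and late arrays all below both for 13.3%. The share of genes with both traits was not counted. Mpeg1's late minus early difference was -0.26 on the log2 scale, and the limma test of that difference gave an adjusted p of 0.0608, which does not pass. Over the alternatives the adjusted p ran from 0.0170 to 0.277, and the difference was below 0 in all of them. The 0.0170 came with the skeletal muscle covariate, where 1081 genes in all passed. It passed in 3 of 18 alternatives, each with a covariate. With 1 array left out at a time, the difference ran from -0.30 to -0.22 and the adjusted p from 0.0634 to 0.277.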

How the results depend on the processing

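All alternatives could be run. Early and late against vehicle, 0 members passed under all 18 alternatives. Late against early, 0 passed except with a covariate: 2 members with the B lymphocyte markers, where 34 genes in all passed, 7 with the skeletal muscle markers (1081 genes) and 1 with the adipocyte markers (93 genes). Leaving out 1 array gave class medians of -0.010 to 0.088 for the resident genes early against vehicle and -0.14 to -0.019 late against early, with -0.010 and -0.019 both without the 6 h array. The antigen presentation median was -0.19 late against vehicle and -0.20 late against early with the mean of all probe sets, and -0.21 late against early at the 60th percentile filter, where 1 gene of the pair was left.

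Counts of members at least 25% above or 20% below both vehicle arrays moved between 0 and 4. Those higher at 3 h were 0 at 1.5-fold and with the mean of all probe sets, and those lower at 12 h were 0 at 1.5-fold. A model of 7 group means counts another quantity, calls at an adjusted p of 0.05, and takes each single array to vary like the vehicle pair. It called 0 members at each time. Without 1 vehicle array, the counts higher were 1 at 1 h, 1 to 3 at 3 h, 2 to 3 at 6 h, 1 to 3 at 12 h and 0 to 1 at 18 h, and those lower were 1 to 4 at 12 h, 2 at 18 h and 1 to 2 at 24 h. The added counts were 26 to 32 members above both vehicle arrays at 6 h, 24 to 29 below at 12 h and 16 to 30 below at 18 h.

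Directions of uncalled differences turned as follows. With the muscle covariate, early minus vehicle was -0.054 for Mpeg1, -0.061 for Clec10a, -0.21 for Fcgr1 and -0.18 for Ctss, and late minus vehicle was 0.24 for Timd4 and 0.033 for Cd74. With the B lymphocyte covariate, Lyve1 late minus early was 0.14 and Timd4 late minus vehicle 0.048. With quantile normalization, Cd14 late minus vehicle was 0.029 and Ctss early minus vehicle -0.013. With the mean of all probe sets, Laptm5 early minus vehicle was -0.016. With 1 array left out, late minus early ran from -0.38 to 0.17 for Lyve1, late minus vehicle from -0.056 to 0.040 for Cd14, and early minus vehicle from -0.13 to 0.089 for Cybb, -0.090 to 0.30 for Timd4, -0.015 to 0.090 for Ctss, -0.033 to 0.10 for Fcgr1 and -0.028 to 0.097 for Laptm5. The cause of these turns was not tested. No paired analysis was possible because each E2 group is 1 array, whose replicate number ties it to neither vehicle array.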
